A study of Homo sapiens with 4 samples.

Results

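The anoctamins, or TMEM16 proteins, are a family of 10 human membrane proteins named ANO1 to ANO10, and the family was described here across RNA-seq libraries of U2OS, an established human osteosarcoma cell line. The 10 genes were taken by name from a table of 39519 genes, and the family was chosen by the TPM of ANO2, which was near 0 in the control cells and higher in the others. The difference of ANO2 between the groups is therefore given as a description and was not tested, while the levels of its paralogs played no part in the choice. Cells carrying the inducible hairpin sh-PURB, which targets the nucleic acid binding protein PURB, received doxycycline at 5 µg/ml for 72 h, and control cells, carrying sh-NC, received DMSO (2 libraries each). Doxycycline was thus present in every sh-PURB library and in no sh-NC library, so the hairpin and the drug cannot be told apart. The labels number the libraries of each hairpin 1 and 2 without saying whether these were separate cultures or different hairpin sequences, and p-values here measure the spread between libraries, which may be technical.

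Anoctamins share a dimeric fold in which each subunit carries its own calcium-gated pathway along the membrane. ANO1 and ANO2 are calcium-activated chloride channels; ANO1 drives secretion and smooth muscle pacemaking, and ANO2 amplifies the odour response of olfactory neurons and acts at photoreceptor terminals. ANO6 moves phospholipids between the leaflets of the membrane and exposes phosphatidylserine on platelets, ANO5 is tied to muscular dystrophy and to a bone dysplasia, and ANO8 and ANO10 have been placed mainly at intracellular membranes.

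ANO2 lies on chromosome 12 at 5531869 to 5946232 on the minus strand (GRCh38, GENCODE), where 12 transcripts are annotated. RefSeq (GRCh38.p14) gives it a pair of start sites, and the promoter windows of both, 250 bases before to 50 after the start, are shown because ANO2 had the largest difference of the family, together with the window of ANO1, its closest functional relative. Capitals mark GGNGGNGGN on either strand, a purine-rich repeat of the kind that PUR proteins are known to bind in single-stranded DNA. The first window, chr12:5946183-5946482 (minus strand), belongs to the start site that GENCODE also gives for the gene. The second is chr12:5945210-5945509 (minus strand), and that of ANO1 is chr11:69985657-69985956 (plus strand). The RefSeq start of ANO1 in this window lies 92.4 kb upstream of the GENCODE start of the gene.
ANO2 first start: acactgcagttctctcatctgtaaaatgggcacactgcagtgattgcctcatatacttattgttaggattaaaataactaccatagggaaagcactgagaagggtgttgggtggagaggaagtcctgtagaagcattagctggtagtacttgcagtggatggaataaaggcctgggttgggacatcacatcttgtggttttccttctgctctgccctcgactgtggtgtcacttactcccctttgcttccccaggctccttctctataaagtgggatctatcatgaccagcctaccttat
ANO2 second start: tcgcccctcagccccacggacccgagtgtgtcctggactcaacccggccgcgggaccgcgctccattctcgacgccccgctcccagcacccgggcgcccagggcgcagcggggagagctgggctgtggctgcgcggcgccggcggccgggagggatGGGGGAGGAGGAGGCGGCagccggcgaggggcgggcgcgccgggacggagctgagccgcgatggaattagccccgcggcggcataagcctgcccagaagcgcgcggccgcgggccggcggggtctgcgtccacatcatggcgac
ANO1 start: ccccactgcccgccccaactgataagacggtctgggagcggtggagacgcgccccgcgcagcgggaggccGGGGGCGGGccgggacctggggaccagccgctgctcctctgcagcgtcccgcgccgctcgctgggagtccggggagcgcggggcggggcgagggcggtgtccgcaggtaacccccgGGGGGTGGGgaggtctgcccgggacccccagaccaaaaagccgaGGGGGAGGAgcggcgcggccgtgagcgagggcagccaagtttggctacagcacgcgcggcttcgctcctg
The first ANO2 window had 46.3% G and C bases and 1 CpG, with no GGNGGNGGN on either strand. It held 1 TATAAA, which lies in the 50 bases after the start and not before it. The second had 77.3% G and C bases and 43 CpGs, with 4 overlapping matches to GGNGGNGGN in 1 run. The ANO1 window had 76.0% G and C bases, 36 CpGs and 3 matches. Over 35114 RefSeq promoter windows of this length the median was 58.7% G and C bases and 14 CpGs, and 52.7% of windows held GGNGGNGGN on either strand, so a match is common. TATAAA was in 11.5% of windows. TGATGNAA, the core of the element that ATF4 binds with C/EBP factors, was in 3.62% of them and the p53 half-site in 6.63%, and neither was found in the 13 windows of the 8 anoctamins that have one. Gene values do not separate the starts of ANO2, so which start was used is unknown.

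In sh-NC, ANO2 was at 0.559 and 0.329 TPM; in sh-PURB it was at 5.49 and 5.99 TPM. TPM is a length-scaled share of all transcripts, so levels of different genes can be compared, but it keeps no read depth and gives no counting interval. Both sh-PURB libraries lay far above both controls, which were themselves close to the bottom of the family. The group means were 0.444 ± 0.162 and 5.74 ± 0.358 TPM (SD, n = 2 each), a ratio of 12.9, and single sh-PURB and sh-NC libraries differed from 9.82-fold to 18.2-fold. On the log2(TPM + 1) scale, which understates changes of low genes, the difference was 2.23 (SE 0.19). In bulk RNA, more cells with a transcript and more transcript per cell cannot be told apart.

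ANO1, the other chloride channel (chromosome 11, 70078302 to 70189528, plus strand), stood the opposite way at a lower level. It was at 0.462 and 0.844 TPM in the controls and at 0.0702 and 0.0966 TPM in sh-PURB. The groups did not overlap, and the control mean was 7.83 times the sh-PURB mean (0.653 ± 0.270 against 0.0834 ± 0.0187 TPM, SD, n = 2 each). No ANO1 value reached 1 TPM, so the gene was outside the limma fit, which took genes with at least 1 TPM in at least 2 libraries. In a fit with no filter its log2(TPM + 1) difference was -0.60 (SE 0.14, unadjusted p = 0.0130, limma adjusted p = 0.309), short of the 0.05 threshold, which 0 of the 27206 genes in that fit passed. Its antisense gene ANO1-AS1 was listed at 0 in all 4 libraries.

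**Figure D1:**
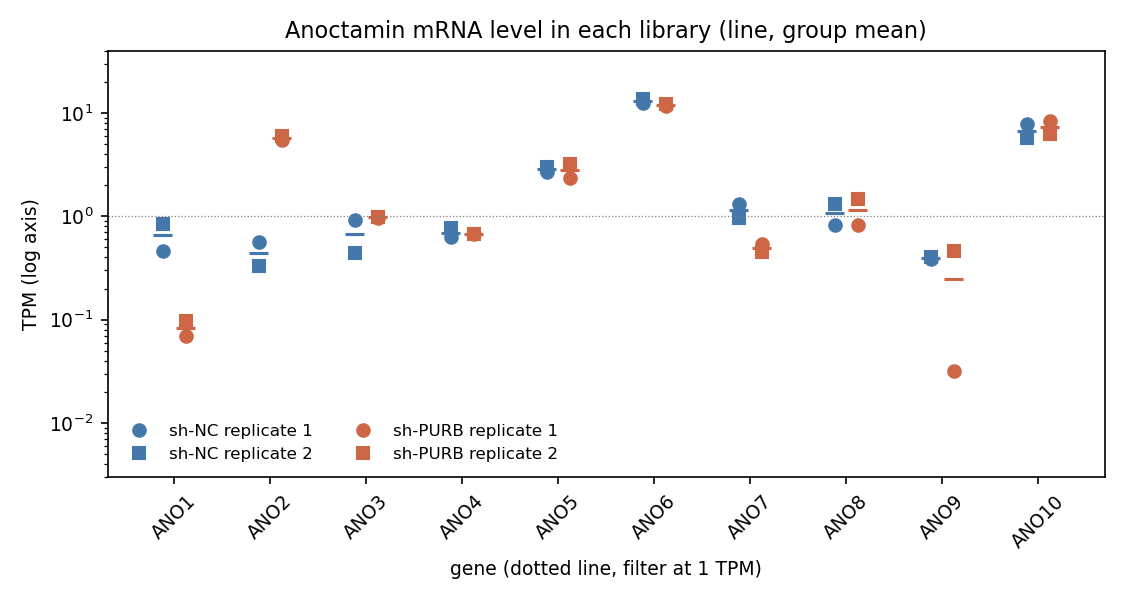
TPM of the 10 anoctamins (log axis) in each of the 4 libraries, with a short line at each group mean and a dotted line at 1 TPM. ANO2 is at 5.49 and 5.99 TPM in sh-PURB against 0.559 and 0.329 TPM in sh-NC, ANO1 lies the other way, and ANO6, ANO10 and ANO5 are the 3 most abundant members in sh-NC.

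The scramblase ANO6 (chromosome 12, 45215987 to 45440404, plus strand) was the most abundant member in every library. It was at 12.5 and 13.7 TPM in the controls and at 11.7 and 12.3 TPM in sh-PURB. The groups just missed each other, with a mean ratio of 0.916. Its log2(TPM + 1) difference was -0.12 (95% interval -0.44 to 0.20, limma adjusted p = 0.720), beside a median of -0.06 over all tested genes. It became 0.027 when TPM was recomputed without the most abundant and the mitochondrial genes, where the median of all tested genes was 0.08, so ANO6 lay below the median in both. Over 14269 tested genes the groups were apart in one direction or the other in 47.9%. PLEKHA8P1, a pseudogene on the opposite strand within ANO6, was at 3.73 ± 1.40 and 4.80 ± 0.249 TPM (SD, n = 2 each). With no strand setting known, its reads and those of ANO6 may be shared, but overlap of their exons was not checked.

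ANO5, the muscle and bone member (chromosome 11, 21799934 to 22283357, plus strand), was at 2.71 and 3.03 TPM in the controls and at 2.38 and 3.22 TPM in sh-PURB. Both sh-PURB values lay outside the narrow control range, on either side of it. The log2(TPM + 1) difference was -0.033 (95% interval -0.54 to 0.47, limma adjusted p = 0.961).

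ANO10, a member linked to a cerebellar ataxia (chromosome 3, 43354859 to 43691594, minus strand), was at 7.76 and 5.70 TPM in the controls and at 8.42 and 6.21 TPM in sh-PURB. The groups overlapped, and in each the library numbered 1 was the higher. Its log2(TPM + 1) difference was 0.11 (95% interval -0.46 to 0.67, limma adjusted p = 0.864). The opposite-strand genes SNRK and ABHD5 overlap ANO10 and were at 3.21 and 2.84 TPM in sh-NC and at 2.99 and 3.63 TPM in sh-PURB (group means).

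ANO8, which tethers the endoplasmic reticulum to the plasma membrane (chromosome 19, 17323223 to 17334829, minus strand), was at 0.821 and 1.33 TPM in the controls and at 0.820 and 1.46 TPM in sh-PURB. Here the library numbered 2 was the higher in both groups, and the gap within a group was wider than the gap between group means. The log2(TPM + 1) difference was 0.04 (95% interval -0.66 to 0.74, limma adjusted p = 0.965). Its intervals and those of ANO5, ANO6 and ANO10 leave room for moderate changes, so like levels are not shown. Of these 4 tested paralogs limma called 0 at an adjusted p under 0.05, and 0 had an unadjusted p under 0.05, where 0.287% and 15.3% of all tested genes did.

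ANO7, best known from prostate epithelium (chromosome 2, 241188509 to 241225377, plus strand), was at 1.33 and 0.972 TPM in the controls and at 0.542 and 0.453 TPM in sh-PURB. The groups were apart, with a control mean 2.31 times that of sh-PURB. With 1 value above 1 TPM it missed the filter, and with no filter its log2(TPM + 1) difference was -0.52 (SE 0.17). Its unadjusted limma p was 0.0399 and its limma adjusted p 0.424, in a fit where 0 genes passed. ANO3, a neuronal member tied to dystonia, was at 0.919 and 0.439 TPM in the controls and at 0.972 and 0.995 TPM in sh-PURB. The sh-PURB values were nearly equal and sat just above the higher control (limma adjusted p = 0.707 with no filter). The opposite-strand gene MUC15 lies within ANO3 and was more abundant, at 3.49 ± 0.757 and 2.58 ± 0.947 TPM (SD, n = 2 each).

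ANO4 was at 0.626 and 0.764 TPM in the controls and at 0.668 and 0.681 TPM in sh-PURB, inside the control range (limma adjusted p = 0.975 with no filter). ANO9 was at 0.389 and 0.405 TPM in the controls and at 0.0321 and 0.465 TPM in sh-PURB, so that 1 sh-PURB library was the lowest of the 4 and the other the highest (limma adjusted p = 0.760 with no filter). Among the 5 members under the filter, ANO1 and ANO7 had both sh-PURB values below both controls and ANO3 had both above. Among 6759 genes that were under the filter but above 0 in every library, 27.5% had the first pattern and 12.1% the second.

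**Figure D2:**
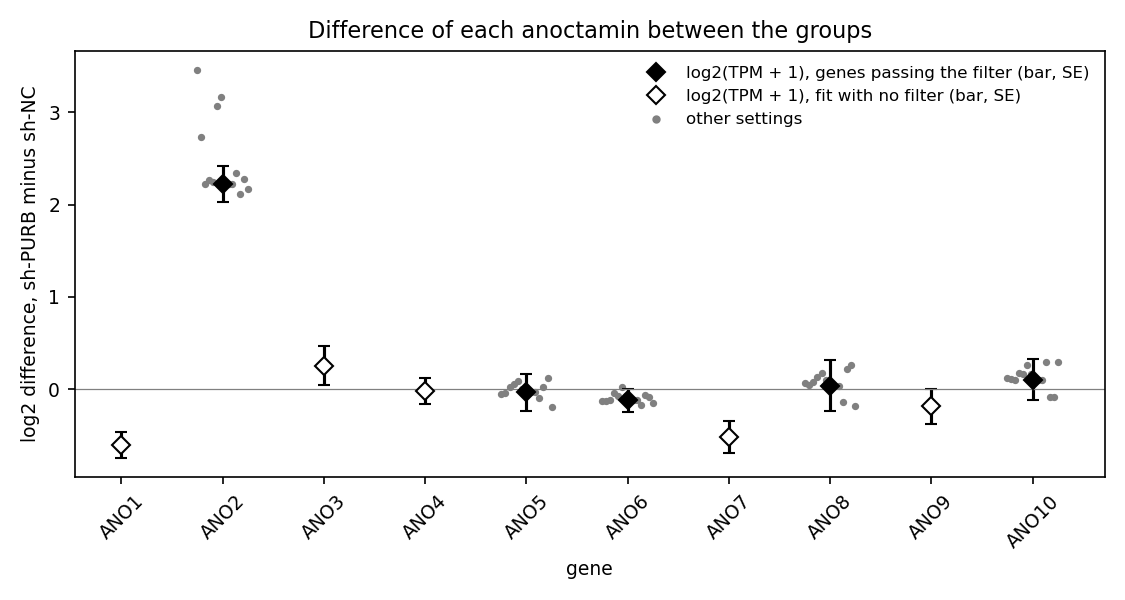
Difference of each anoctamin between sh-PURB and sh-NC on the log2(TPM + 1) scale, with bars for the standard error; filled points passed the filter, open points come from the fit with no filter, and grey points are the other settings. ANO2, by whose rise the family was chosen, lies at 2.23 and above 2 in every setting. ANO5, ANO6, ANO8 and ANO10 lie between -0.12 and 0.11 in the fit with the filter.

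The order of levels within the family was not the same in both groups. In sh-NC it ran ANO6, ANO10, ANO5, ANO7, ANO8, ANO4, ANO3, ANO1, ANO2 and ANO9. The ranges of ANO7 and ANO8 overlapped, and so did those of each neighbouring pair from ANO4 to ANO9, so the lower part has no firm order. In sh-PURB, ANO2 stood between ANO10 (6.21 to 8.42 TPM) and ANO5 (2.38 to 3.22 TPM) without touching either. The ranges of ANO8 and ANO3 overlapped there, as did those of ANO7 and ANO9, and those of ANO9 and ANO1, which stood lowest. Among all genes of the table, the mean level of ANO2 moved from the percentile 58.5 to 81.0 and that of ANO1 from 61.1 to 47.4.

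Summed over the family, sh-NC had 28.1 and 27.5 TPM while sh-PURB had 31.1 and 31.9 TPM. The ratio of means was 1.13. Without ANO2, sh-NC had 27.5 and 27.1 TPM while sh-PURB had 25.6 and 25.9 TPM. In the deposited TPM, the higher total of sh-PURB was thus present with ANO2 counted and absent without it. The ratio of means without ANO2 was 0.942, and this sum was not computed under other scalings. With recomputed TPM the ratio for all 10 members was 1.26 in place of 1.13. In that setting the log2 differences of ANO6, ANO10, ANO5 and ANO8 were 0.027, 0.26, 0.094 and 0.17, all above 0. The absence of a higher total without ANO2 is therefore shown for the deposited TPM alone and may turn round with recomputed TPM. ANO2 made up 1.59% ± 0.559 of the sum in sh-NC and 18.2% ± 0.814 in sh-PURB, while ANO6 made up 47.2% ± 3.64 and 38.1% ± 0.677 (SD, n = 2 each). These shares include ANO2 and were not tested.

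**Figure D3:**
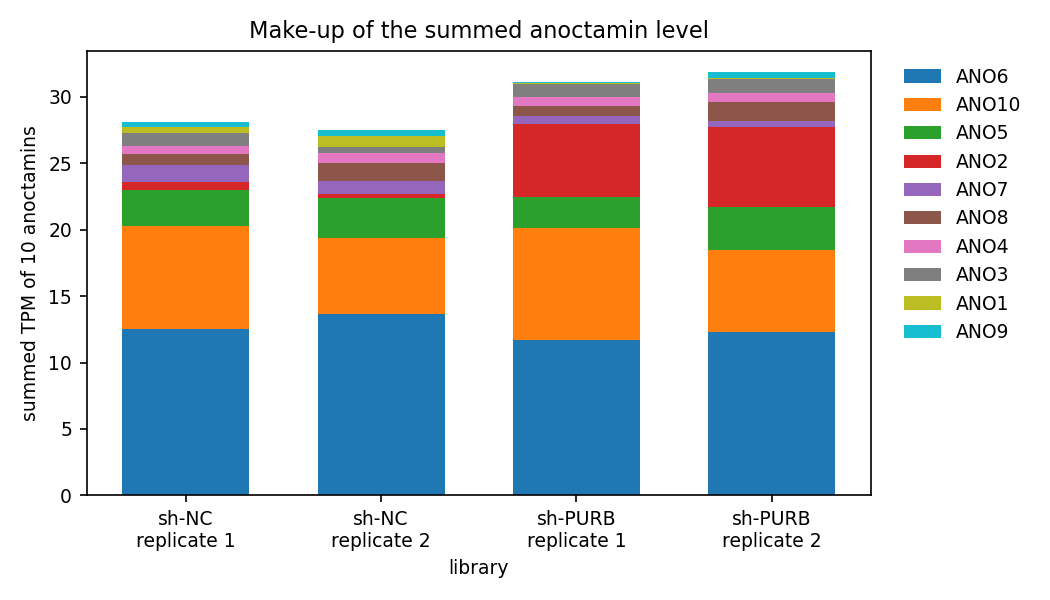
Summed TPM of the 10 anoctamins in each library, stacked by member from ANO6 at the base. The red ANO2 segment is thin in the sh-NC libraries and takes 17.7% and 18.8% of the bar in the sh-PURB libraries.

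The genes most like ANO2 were sought among 13522 tested genes by the distance between log2(TPM + 1) values over the 4 libraries. The nearest 5 were HDAC2-AS2 (distance 0.72), KHDRBS2 (0.75), MIR191 (0.78), MIR3175 (0.81) and SNORD116-14 (0.82). KHDRBS2, which encodes an RNA-binding protein, was at 0.358 and 0.407 TPM in the controls and at 2.98 and 5.27 TPM in sh-PURB. The antisense RNA HDAC2-AS2 was at 1.01 TPM in both controls and at 5.10 and 6.67 TPM in sh-PURB. The 3 short RNA genes were listed at 0 in both controls, where an estimate from so few possible fragments may have failed. KHDRBS2 and the 3 short RNA genes reached the filter through their sh-PURB values alone. All 5 were picked by closeness to ANO2, so their higher sh-PURB values follow from the choice and carry no support. The likeness rests on 4 points.

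Of the 3 nearest protein-coding genes on each side of ANO2 on chromosome 12, NTF3 alone had both sh-PURB values above both controls, and CD9, KCNA1 and KCNA5 had both below. Groups were apart in 47.9% of tested genes, and below the filter 12.1% of genes had sh-PURB above and 27.5% below, so such patterns are common. VWF, the von Willebrand factor gene whose start site is 178.5 kb away, was at 0.165 and 0.446 TPM in the controls and at 0.0900 and 0.208 TPM in sh-PURB. The tetraspanin gene CD9 was the abundant neighbour, at 43.7 and 40.3 TPM in sh-NC and at 33.2 and 32.5 TPM in sh-PURB (log2(TPM + 1) difference -0.34, limma adjusted p = 0.235). On the other side, the neurotrophin gene NTF3 was at 0.752 and 0.775 TPM in the controls and at 1.38 and 1.58 TPM in sh-PURB (difference 0.49). It reached the filter through its sh-PURB values alone, so no test is given. PLEKHG6 stayed below 0.2 TPM throughout. The potassium channel genes KCNA1 and KCNA5 were under 1 TPM in every library, with KCNA1 at 0.755 and 0.498 TPM in the controls and at 0.131 and 0.133 TPM in sh-PURB. No overlapping gene of ANO2 was matched in the table.

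**Figure D4:**
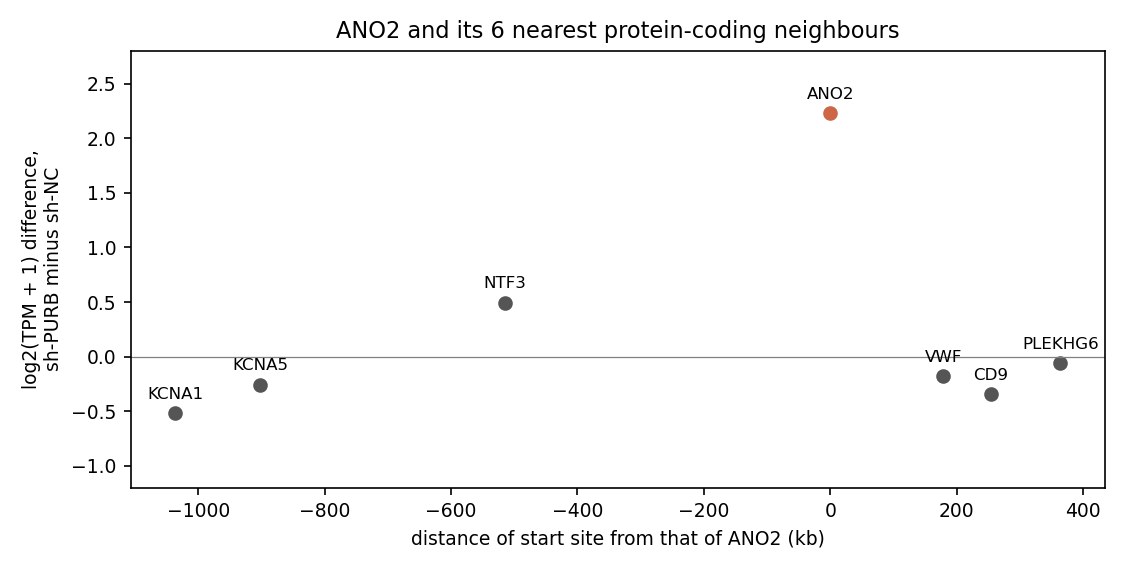
Difference on the log2(TPM + 1) scale (sh-PURB minus sh-NC) of ANO2 and of the 3 nearest protein-coding genes on each side, against the distance between start sites in kb. ANO2 is at 2.23, NTF3 at 0.49, and the other 5 lie below 0, down to -0.52 for KCNA1.

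Genes that share a task with the anoctamins were described as lists, beside a median log2(TPM + 1) difference of -0.06 over all tested genes. Of all tested genes, 5.77% were higher and 9.53% lower at an unadjusted limma p under 0.05. After adjustment limma called 0.287% of them, so a count of 0 in lists of this size says little about the lists. Of 32 other chloride channel genes 21 were tested, with a median of -0.12, and limma called 0 after adjustment (unadjusted, 3 higher and 1 lower, or 2 and 1 without BEST1, which reached the filter through its sh-PURB values alone). LRRC8D, a subunit of the volume-regulated anion channel, was at 3.86 and 3.30 TPM in the controls and at 6.04 and 6.30 TPM in sh-PURB, with a limma adjusted p of 0.159. BEST1, a bestrophin and so itself a calcium-activated chloride channel, was at 0.426 and 0.296 TPM in the controls and at 1.31 and 1.42 TPM in sh-PURB, and is given no test. The endosomal exchanger CLCN6 was at 2.59 ± 0.354 and 4.99 ± 1.90 TPM and the tweety-family gene TTYH1 at 5.04 ± 0.162 and 1.79 ± 1.34 TPM (SD, n = 2 each; limma adjusted p = 0.320 and 0.234).

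Of 33 scramblase and flippase genes 19 were tested, with a median of -0.09 and 0 called by limma (1 higher and 3 lower unadjusted, or 0 and 3 without ATP8B1, which reached the filter through its sh-PURB values alone). VMP1, an endoplasmic reticulum scramblase of autophagy, was at 147 and 156 TPM in the controls and at 73.7 and 88.2 TPM in sh-PURB, 0.535 of control. Its limma adjusted p was 0.0695, and it passed at 0.0114 when protein-coding genes alone were fitted, where 3.41% of genes were called, and at 0.0474 with a filter at 5 TPM. The flippase gene ATP9A had a ratio of 0.495 (limma adjusted p = 0.159). ATP8B1, another flippase gene, was at 0.275 and 0.303 TPM in the controls and at 1.06 and 1.09 TPM in sh-PURB. Of 11 TMC and TMEM63 genes, relatives of the anoctamins by protein structure, 6 were tested, with a median of -0.20 and 0 called by limma (0 unadjusted). TMC6 had the smallest p-value of them, with a ratio of 0.734, followed by TMC1, TMEM63A and TMC7 at 0.649, 0.836 and 0.785 (limma adjusted p from 0.369 to 0.748).

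Anoctamins are gated by calcium, and of 17 genes of calcium release and store-operated entry 14 were tested, with a median of -0.23 and 0 called by limma (0 higher and 4 lower unadjusted). The calmodulin gene CALM3 was at 57.2 and 60.7 TPM in the controls and at 36.8 and 38.5 TPM in sh-PURB, 0.638 of control. Its limma adjusted p was 0.0842, and 0.0360 among protein-coding genes alone. The IP3 receptor ITPR2 had a ratio of 0.637 and the calcium sensor STIM2 one of 0.603 (limma adjusted p = 0.266 and 0.318). Of 18 genes of contact sites between the endoplasmic reticulum and the plasma membrane, where ANO8 works, 14 were tested, with a median of -0.14 and 0 called by limma (0 higher and 2 lower unadjusted). The lipid transfer gene GRAMD1C was at 9.33 ± 0.549 and 5.84 ± 0.344 TPM and the junctophilin JPH3 at 6.35 ± 0.809 and 3.64 ± 0.774 TPM (SD, n = 2 each; limma adjusted p = 0.154 and 0.222). PITPNM1 and OSBPL5 had ratios of 0.637 and 0.674 (limma adjusted p = 0.346 and 0.354).

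**Figure D5:**
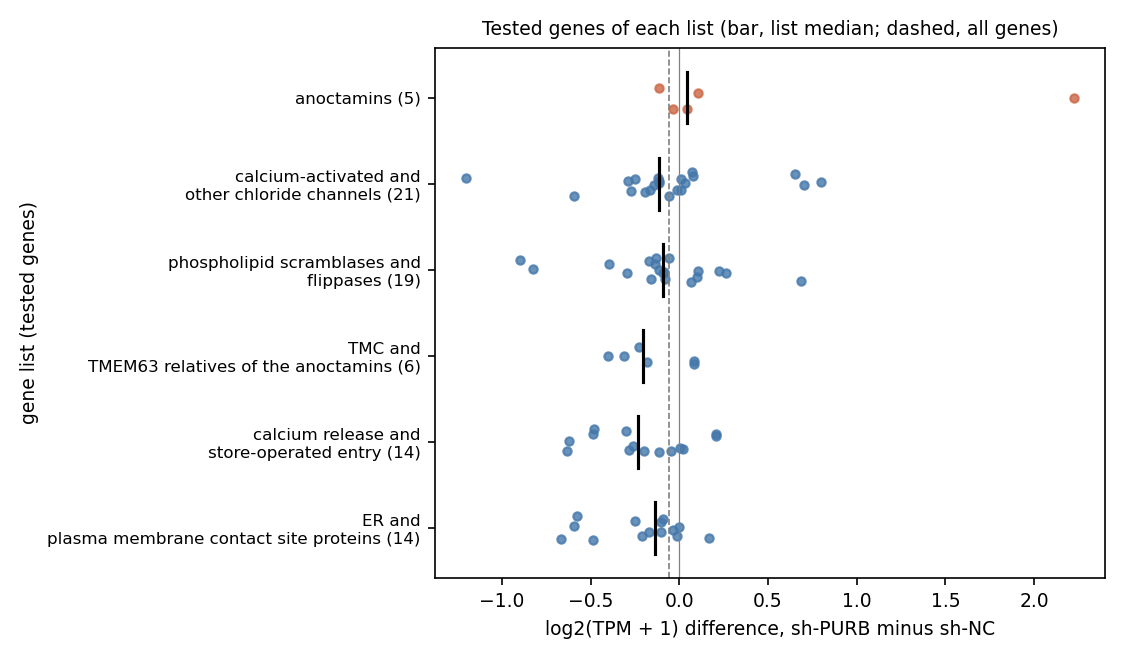
Difference on the log2(TPM + 1) scale (sh-PURB minus sh-NC) of each tested gene of the anoctamin family and of 5 related lists, with a bar at each list median and a dashed line at the median of all tested genes, -0.06. ANO2 stands alone at 2.23, and the medians of the related lists lie between -0.23 and -0.09.

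Markers of the cells in which ANO2 is best known were low in both groups. Of 9 olfactory neuron markers 7 stayed below 1 TPM in every library, and CNGA2, the olfactory cation channel, was listed at 0 in all 4. The list summed to 15.7 and 13.9 TPM in sh-NC and to 12.7 and 11.6 TPM in sh-PURB, nearly all of it ADCY3 and GNAL. Of 9 photoreceptor markers 6 stayed below 1 TPM in every library, with sums of 6.18 and 7.23 TPM (sh-NC) and of 4.33 and 8.05 TPM (sh-PURB). Of 10 muscle markers 8 stayed below 1 TPM. Their sum was 2.20 and 1.13 TPM in sh-NC against 4.33 and 5.67 TPM in sh-PURB. It was higher mostly through the troponin gene TNNT2 (0.267 and 0.102 against 2.18 and 2.88 TPM), which reached the filter through sh-PURB alone. MYL2 also had both sh-PURB values above both controls, while MYOD1, CKM and MYH7 had both below, all under 1 TPM. The groups of the other muscle markers overlapped. MYOD1 and MYOG stayed under 0.13 TPM. The part of muscle markers in the ANO2 level was not tested. Blood and endothelial lists summed to 2.21 to 9.30 TPM per library, and the epithelial list to 194 to 224 TPM through the keratins KRT8 and KRT18.

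The line was labelled bone. RUNX2 (1.92 to 3.92 TPM) and SPARC (220 to 262 TPM) were present, while the osteoblast markers IBSP and SP7 were at or near 0 and ALPL and BGLAP were below 0.25 TPM. SPP1, which encodes the bone matrix protein osteopontin, had 33.8 and 30.7 TPM in the controls against 6.59 and 5.80 TPM in sh-PURB, 0.192 of control. Its log2(TPM + 1) difference was -2.21 (SE 0.13, limma adjusted p = 0.0374), and without single libraries the adjusted p ran from 0.106 to 0.243. Of the 10 osteoblast markers 5 were tested and limma called SPP1 alone, where it called 0.287% of all tested genes. All 5 tested markers had differences below 0, with a median of -0.37, though the groups of the other 4 overlapped. Among the markers under the filter, BGLAP had both sh-PURB values above both controls and ALPL had both below. The part of these markers in the anoctamin levels was not tested. PURB, which the hairpin targets, had values of 5.29 and 6.55 TPM in sh-NC and, at 43.5% of these on average, 2.46 and 2.69 TPM in sh-PURB; its limma adjusted p was 0.102 (0.0315 among protein-coding genes alone). The exact two-sided permutation p was 0.333, the smallest possible with 2 libraries against 2. Between 13298 and 14207 genes per library reached 1 TPM, and 5 genes took 59.4% to 65.2% of each library.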

How the data were processed

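Total RNA, depleted of ribosomal RNA per the labels' protocols, was sequenced from 4 U2OS libraries, grouped by their titles. The authors deposited TPM per gene symbol, and the 4 tables of single libraries held the same values as the joint table. Per the submitters' processing notes kallisto 0.44.0 and bcl2fastq 2.19 were used, with DESeq2 and sleuth, on GRCm38 and GRCh38; no role is stated for any. The annotation, the strand setting and the summing of transcripts are not given in the sources used here. TPM holds no depth, so the precision of each value is unknown. A row with no name (0.921% to 1.66% of a library) was left out.

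Of 39519 genes, 14269 had at least 1 TPM in at least 2 libraries. Their log2(TPM + 1) values were compared in limma 3.58.1 (R 4.3.3) with an intensity trend, and p-values were adjusted by Benjamini-Hochberg over all of them, with a threshold of 0.05. Of the 10 anoctamins 5 passed this filter, ANO2 through its sh-PURB values alone, and in all 180 tested genes did so, while 316 passed through sh-NC alone. ANO2 was in the fit but was given no test. The fit was tested on 20 simulations of this comparison (14269 genes, of which 200 were changed). It found 6.75% of the 2-fold and 62.4% of the 4-fold changes, and 5.63% of its calls were false. These changes were made on the log2(TPM + 1) scale, so for low genes they are not 2-fold or 4-fold in TPM. The simulated spread was drawn from the variance model that limma itself fitted, so the false share does not check that model.

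The family, the lists and the tests were chosen with earlier results of these data known. All 10 anoctamins and PURB were named, with the 4 genes of smallest p-value from each related list (or its called members), the 5 genes nearest to ANO2 in level and its 3 nearest coding genes on each side. Marker and overlapping genes were named after their values were seen. A few genes under these rules are counted but not reported here. Loci came from GENCODE v29 on GRCh38 and promoter windows from RefSeq on GRCh38.p14, where 8 of 10 members matched. Alternatives were other pseudocounts (0.1, 0.5), filters, scalings, gene sets, moderation, a replicate block and leaving out each library.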

Additional observations from a re-analysis of the deposited data

How the results depend on the processing

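Under all 15 alternatives the count of called paralogs stayed at 0 in limma. With no filter, a pseudocount of 0.1, no trend or any library left out, limma called 0 of all genes, so those fits could not have shown a call. The ANO2 difference on the log2 scale kept its sign throughout, which carries no support because the family was chosen by that rise. It was 3.46 with a pseudocount of 0.1 and 2.73 with 0.5, 3.07 with TPM recomputed without the most abundant and the mitochondrial genes and 3.16 with protein-coding genes rescaled to a common sum, and without single libraries it ran from 2.11 to 2.34. By construction these settings use a smaller pseudocount or scale the values up against it. The median of all tested genes moved from -0.06 to 0.08 with recomputed TPM. ANO6 went to 0.027 in that setting, against -0.12, and relative to the median it stayed below. ANO5 turned from -0.033 to 0.025 with median-ratio scaling, 0.055 with quantile normalization, 0.094 with recomputed TPM and 0.0031 with protein-coding genes alone, where the median of all genes was 0.0094, 0.0074, 0.077 and -0.016, so ANO5 lay above the median in each, as before. Without single libraries ANO5 ran from -0.19 to 0.13, ANO8 from -0.18 to 0.26 and ANO10 from -0.088 to 0.30. The ratio of summed anoctamin TPM was 1.20 with median-ratio scaling and 1.20 with quantile normalization, 1.26 with recomputed TPM and 1.17 with protein-coding genes alone, against 1.13. SPP1 was no longer called with a pseudocount of 0.1, no filter, no trend or any library left out. PURB passed the threshold among protein-coding genes alone, at -1.07. Of the related lists, limma called 1 member with a filter at 5 TPM (VMP1) and 2 with protein-coding genes alone (VMP1 and CALM3); the cause was not tested. With the replicate number as a block, limma called 118 genes in place of 41 and 0 of the 4 paralogs, and ANO2 stayed at 2.23. Deviations of same-numbered libraries correlated at 0.193 over 14269 genes, but the labels give the shared numbers no meaning, so the pairing is not established. No depth can be read from TPM, which limits what is said of members below 1 TPM.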
